A study of Rattus norvegicus with 4 samples.

Results

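The samples described here were the gracilis muscles of sham-operated rats: 2 of the 4 samples of the study, chosen by their titles, with 350 rat microRNAs (miRNAs) measured on each. The gracilis is a slender muscle of the inner thigh, and the animals were male Sprague-Dawley rats that served as sham-operated controls for ischemia-reperfusion, with no drug or genetic change named. The labels call the muscles biological replicates 1 and 2 and give neither the age of the rats nor the time between operation and harvest. The muscle was frozen, total RNA was isolated with a miRNA isolation kit, labelled with the dye Cy3 and hybridised to a 1-colour array. The other 2 samples of the study, taken after ischemia and reperfusion, were not compared with them. Whole muscle holds fibres, vessels, blood, nerve and connective tissue, so that fewer cells of a type and less RNA per cell cannot be told apart.

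A miRNA is a short RNA cut from a hairpin precursor. It guides the silencing machinery to messenger RNAs that pair with its seed, the bases near its 5′ end, and miRNAs with the same seed form a family with overlapping targets. Many hairpins lie close together and are cut from the same primary transcript, as a genomic cluster. In striated muscle the best known are the miR-1 and miR-133 families, which the muscle transcription factors MyoD, MEF2 and SRF switch on, and miR-206, which is restricted to skeletal muscle. In cultured mouse myoblasts miR-1 and miR-206 favour differentiation and miR-133 favours proliferation.

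The brightest miRNA on both sham arrays, miR-133b, was a member of the muscle families, and 4 mature sequences of these are printed because they show how few bases separate them. Sequences are those of RefSeq on the rat build GRCr8, written 5′ to 3′, and the capitals mark the seed, bases 2 to 8.
miR-133b: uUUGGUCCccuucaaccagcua
miR-133a: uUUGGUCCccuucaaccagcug
miR-1: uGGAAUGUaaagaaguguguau
miR-206: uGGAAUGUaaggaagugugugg
Counted from 1 at the 5′ end, miR-133b and miR-133a differed by the single substitution A22G at the last base. The pair miR-1 and miR-206 differed by A11G, A21G and U22G. The genes form pairs across the families: miR-133b (chr9:30594629-30594650, plus strand) lies beside miR-206 (chr9:30590747-30590768), and miR-1 (chr18:2160339-2160360, minus strand) beside miR-133a (chr18:2157886-2157907). In the RefSeq gene table the first pair falls within the span of a long non-coding RNA gene, LOC120094648, and the second within that of Mib1, which codes for a ubiquitin ligase of Notch signalling. The table gives no strand for these spans.

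The next set holds the most abundant miRNAs by signal that are not specific to muscle, grouped by seed, with the near-identical relatives whose signals follow below.
let-7a: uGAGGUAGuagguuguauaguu
let-7f: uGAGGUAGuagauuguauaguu
miR-29a: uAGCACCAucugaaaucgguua
miR-29c: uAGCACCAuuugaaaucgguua
miR-30a: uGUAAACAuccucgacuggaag
miR-30e: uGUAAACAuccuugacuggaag
miR-23a: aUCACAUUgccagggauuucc
miR-23b: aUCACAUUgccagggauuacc
miR-26a: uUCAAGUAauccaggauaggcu
miR-26b: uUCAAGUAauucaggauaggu
miR-22: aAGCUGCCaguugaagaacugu
miR-16: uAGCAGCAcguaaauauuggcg
Each of the first 4 pairs differed by 1 base outside the seed: let-7f and let-7a by A12G, miR-29a and miR-29c by C10U, miR-30a and miR-30e by C13U, and miR-23a and miR-23b by U19A. Whether a probe for such a miRNA also bound its relative was not tested, so a split of signal within these pairs, and within miR-133b and miR-133a, is less certain than the sum of the family.

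The third set holds miRNAs that stood far apart between the sham arrays, and no seed is shared among them.
miR-142-3p: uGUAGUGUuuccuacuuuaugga
miR-223: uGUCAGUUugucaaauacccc
miR-494: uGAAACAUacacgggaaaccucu
miR-139-3p: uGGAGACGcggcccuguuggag
miR-126: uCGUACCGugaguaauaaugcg
miR-10b: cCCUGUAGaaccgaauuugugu
Of these, miR-142 (chr10:73055155-73055177, plus strand, within the span of Tspoap1) and miR-223 (chrX:65151450-65151470, plus strand) are blood cell miRNAs. The endothelial miRNA miR-126 (chr3:29813219-29813240, plus strand) lies within the span of Egfl7, an epidermal growth factor-like gene. The hairpin of miR-10b (chr3:80035886-80035907, plus strand) lies within the span of Hoxd4, in a cluster of genes that pattern the body axis.

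The scanner software flagged 158 of the 350 miRNAs (45.1%) as detected on sham 1 and 187 (53.4%) on sham 2. Of these, 145 were detected on both arrays, 150 on neither, 13 on sham 1 only and 42 on sham 2 only. Values are background-subtracted total signals in linear intensity units, each with the scanner software's own error, whose median was 8.80% of the signal on sham 1 and 8.64% on sham 2. Sham 1 was the brighter array, with a total detected signal of 393468 units against 184128, and with 132 miRNAs below 0 against 92 on sham 2. For this reason the main measure is the share of the total detected signal on the same array. A share of signal is not a share of molecules, since probes differ in labelling and binding, and 2 arrays limit the precision of every mean.

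Detected signals spanned 8.06 to 102374 units on sham 1 and 1.84 to 94649 units on sham 2. The brightest miRNA held 26.0% of the signal on sham 1 and 51.4% on sham 2. The 10 brightest held 70.2% and 74.0%, and the 20 brightest 82.7% and 85.1%. Past the first ranks both arrays were alike in concentration: 29 miRNAs on sham 1 and 28 on sham 2 made up 90% of the signal, and 88 and 103 made up 99%. The number that made up 50% was 3 on sham 1 and 1 on sham 2. Most detected miRNAs were dim, and the median detected signal was 191 units on sham 1 and 62.1 on sham 2. The 145 miRNAs detected on both carried 99.8% of the sham 1 signal and 99.04% of the sham 2 signal.

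**Figure D1:**
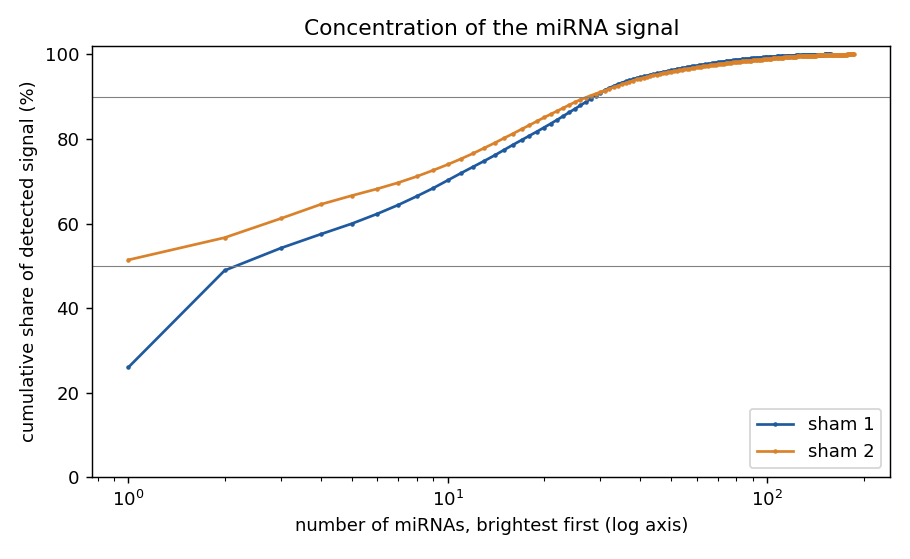
Cumulative share of the detected signal (%, vertical axis) against the number of miRNAs counted from the brightest (log axis), with a line for each sham array and grey lines at 50% and 90%. The lines start apart, at 26.0% for sham 1 and 51.4% for sham 2, and meet near 90% at 29 and 28 miRNAs.

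The tissue label was set against marker lists. Of the 6 miRNAs listed for skeletal muscle, 5 were detected on each array (miR-1, miR-133a, miR-133b, miR-206 and miR-499), and they summed to 53.9% of the signal on sham 1 and 61.4% on sham 2, a mean of 57.6% ± 5.34 (SD, n = 2). The member below detection on both was miR-208, which is encoded in a cardiac myosin gene. None of the 10 epithelial miRNAs was detected on either array, with signals from −12.0 to 0.796 units on sham 1 and from −1.61 to 7.76 on sham 2. None of 3 pancreatic miRNAs was detected, and of 3 liver miRNAs 1, miR-192, was detected on sham 1 at 27.2 units. Of 7 miRNAs listed for nerve and brain 3 were detected on both arrays, and the brain-enriched miR-124 and miR-9 were not among them. Of the 8 embryonic miRNAs listed 5 were on the array, and of these none was detected on sham 1 and 2 were on sham 2, miR-290 at 17.3 units and miR-292-5p at 5.83.

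Among the muscle miRNAs, miR-133b was the brightest on both arrays, at 102374 ± 8185 units (scanner error) on sham 1 and 94649 ± 7127 on sham 2. These are near-equal signals on arrays whose totals differed 2.14-fold, so the share of miR-133b was 26.0% on sham 1 and 51.4% on sham 2. In contrast, miR-1 read 90039 ± 6574 units on sham 1 and 8359 ± 613 on sham 2. It was at rank 2 on sham 1 with 22.9% of the signal and at rank 3 on sham 2 with 4.54%. The mean share of neither miRNA is thus near its share in either muscle.

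The other 3 members differed less in share or were dimmer. The signal of miR-206, which in mice aids regrowth of neuromuscular synapses, was 12946 ± 954 units on sham 1 and 6144 ± 444 on sham 2. It was at rank 4 on both arrays, and its share was 3.29% and 3.34%. For miR-133a the signals were 5853 ± 532 and 3798 ± 356 units, rank 12 on sham 1 and rank 5 on sham 2. The slow-fibre miRNA miR-499, which lies within the span of the myosin gene Myh7b, read 721 ± 57.2 and 122 ± 9.45 units, ranks 42 and 71. So the order miR-133b, miR-1, miR-206, miR-133a, miR-499 was the same on both arrays, while the ratio of miR-133b to miR-133a was 17.5 on sham 1 and 24.9 on sham 2 and that of miR-1 to miR-206 was 6.95 and 1.36. Control features with signals in this range were also present: hur_2 read 112946 ± 5672 units on sham 1 and 90809 ± 4557 on sham 2. The columns used hold no mark of saturation, and whether the brightest probes were at their limit was not tested.

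**Figure D2:**
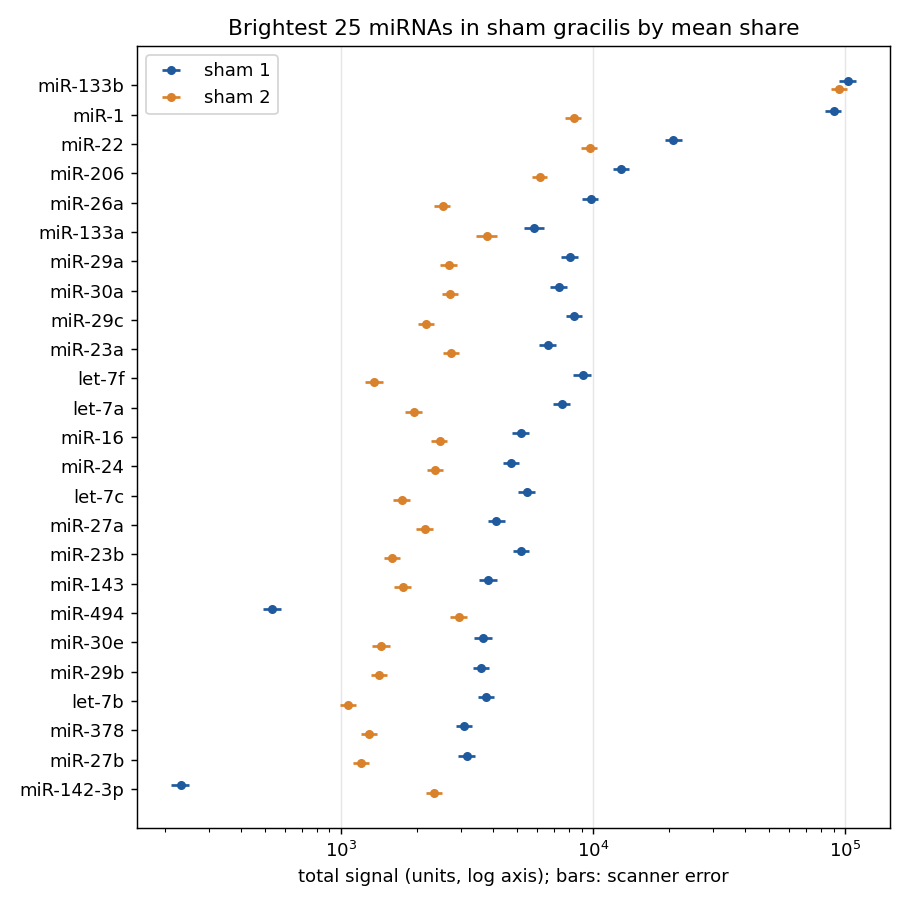
Total signal (units, log axis) of the 25 miRNAs with the highest mean share, with a point for each sham array and bars for the scanner software's error. Most points of sham 1 lie to the right of those of sham 2, miR-133b is at 102374 and 94649 units, miR-1 is at 90039 and 8359 units, and miR-494 and miR-142-3p are brighter on sham 2.

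Among the other bright miRNAs most are found in many tissues. The heart and muscle miRNA miR-22 (chr10:60805387-60805408, plus strand) was the steadiest of the bright ones, at 20827 units and rank 3 on sham 1 and 9676 units and rank 2 on sham 2. Its share was 5.29% and 5.26%. Next by mean share was miR-26a, which in mouse myoblasts favours differentiation, with 9764 and 2527 units, ranks 5 and 10. It lies within the span of Ctdspl (chr8:127633063-127633084, plus strand), a phosphatase gene.

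Signals of the miR-29 family, known as repressors of collagen genes, were 8104 units for miR-29a, 8425 for miR-29c and 3586 for miR-29b on sham 1, and 2676, 2180 and 1418 units on sham 2. On sham 1 the signals of miR-29a and miR-29c were within their scanner errors of 615 and 596 units. In the miR-30 family, miR-30a read 7336 and 2716 units and miR-30e 3654 and 1443, so miR-30a was 2.01-fold above miR-30e on sham 1 and 1.88-fold on sham 2. From the pair of clusters that encode miR-23, miR-27 and miR-24, miR-23a read 6634 and 2738 units, miR-23b 5184 and 1596, miR-27a 4136 and 2148, and miR-24 4723 and 2358. For miR-27b the signals were 3155 and 1205 units. In the miR-23 and miR-27 pairs the member from the chr19 cluster was the brighter on both arrays. Both clusters encode the same miR-24, so its signal cannot be divided between them.

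The let-7 miRNAs, discovered as timers of development in Caenorhabditis elegans, made up much of the next ranks. let-7f read 9075 units on sham 1 and 1353 on sham 2, ranks 6 and 23, and let-7a 7514 and 1940 units. The ratio of let-7f to let-7a, which differ by A12G, was 1.21 on sham 1 and 0.697 on sham 2, so the brightest let-7 differed between the muscles. let-7c read 5449 and 1738 units and let-7b 3767 and 1070. The cell-cycle regulator miR-16 was steadier in share, at 5156 and 2460 units, as was the smooth muscle miRNA miR-143, at 3838 and 1758 units. The signal of miR-378, within the span of the metabolic coactivator gene Ppargc1b, was 3075 and 1292 units.

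The arrays shared 7 of their 10 brightest miRNAs (70% of each list), 17 of the 20 brightest (85%) and 40 of the 50 brightest (80%). In the first 20 of sham 1 but not of sham 2 were let-7b (rank 26 on sham 2), let-7f (rank 23) and miR-126 (rank 50). In the first 20 of sham 2 but not of sham 1 were miR-142-3p (rank 75 on sham 1), miR-223 (rank 85) and miR-494 (rank 52). The latter 3 were thus far down the list on sham 1.

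Of the 350 array names, 242 were matched to a RefSeq mature sequence, and these carried 97.9% of the signal on sham 1 and 98.5% on sham 2. They fell into 188 seed families, 127 of them with detected signal. The family of miR-133b and miR-133a (seed UUGGUCC) held 27.5% and 53.5%, a mean of 40.5% ± 18.4 (SD, n = 2). The family of miR-1 and miR-206 (GGAAUGU) held 26.2% and 7.88%, a mean of 17.0% ± 12.9. These leading families thus had nearly equal shares on sham 1 and far from equal ones on sham 2. The 8 let-7 members (GAGGUAG), miR-98 among them, held 8.45% and 4.31%.

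The remaining large families differed less between the arrays in absolute share. The miR-29 family (AGCACCA) held 5.11% and 3.41%, and miR-23a with miR-23b (UCACAUU) 3.003% and 2.35%. For miR-30a, miR-30c and miR-30e (GUAAACA) the share was 3.67% and 2.67%, and with miR-30b-5p and miR-30d added by name 4.48% and 3.28%. The 5 detected members with the seed AGCAGCA (miR-16, miR-195, miR-497, miR-322 and miR-15b) held 2.60% and 2.14%, and miR-27a with miR-27b (UCACAGU) 1.85% and 1.82%. The exception in relative terms was miR-26a with miR-26b (UCAAGUA), at 3.26% and 1.54%.

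**Figure D3:**
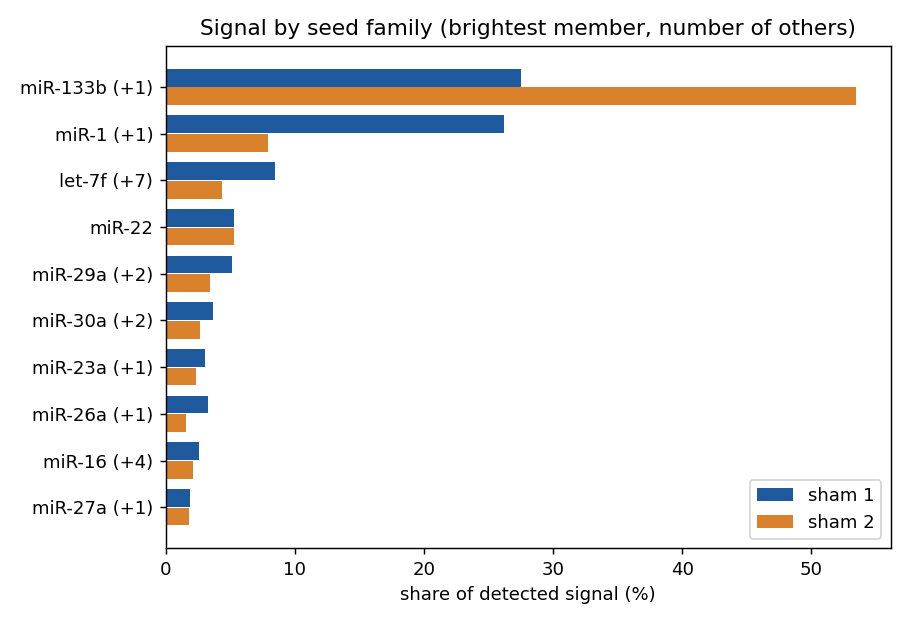
Share of the detected signal (%, horizontal axis starting at 0) of the 10 seed families with the highest mean share, a bar for each sham array, named by the brightest member and the number of other detected members. The families of miR-133b (27.5% and 53.5%) and miR-1 (26.2% and 7.88%) differ most, and miR-22 (5.29% and 5.26%) and miR-27a (1.85% and 1.82%) least.

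Since miR-133b and miR-1 together made up 48.9% of the signal on sham 1 and 55.9% on sham 2, every other share moves with them. Over the signal without them, miR-22 held 10.4% and 11.9%, and the 10 brightest 48.0% and 46.9%. The number of miRNAs that made up 50% was then 11 and 12. The let-7 family still differed, at 16.5% and 9.78%, and the miR-29 family was at 10.005% and 7.73%. The miR-16 family held 5.09% and 4.86%, and miR-27a with miR-27b 3.63% and 4.13%. Apart from these 2 miRNAs, the signal was thus spread over the ranks in much the same way in both muscles.

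Genomic clusters were formed from hairpins on the same strand less than 10 kb apart. The 121 miRNAs from clusters of 2 or more hairpins carried 82.4% of the signal on sham 1 and 85.2% on sham 2. The other 121 matched miRNAs carried 15.5% and 13.3%. They are not all solitary, since only hairpins with an entry of their own in the sequence reference were joined. For example let-7b, beside a let-7c gene on chr7, was left among them with 0.957% and 0.581%. The cluster of Mir133b and Mir206 (chr9:30590697-30594665, plus strand) held 29.3% and 54.7%, a mean of 42.0% ± 17.98 (SD, n = 2). That of Mir1 and Mir133a1 (chr18:2157872-2160413, minus strand) held 24.4% and 6.60%, a mean of 15.5% ± 12.6. Within the chr18 cluster the shares of the members moved apart. The share of miR-1 was lower on sham 2 than on sham 1. That of miR-133a was 1.49% on sham 1 and 2.06% on sham 2. The unscaled signals of both were lower on sham 2. Whether the miR-133a signal includes binding of miR-133b was not tested.

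The hairpins Mir22 and Mir6326 (chr10:60805078-60805425, plus strand) held 5.37% and 5.29%, from miR-22 and miR-22*, as no miRNA of Mir6326 was measured. The cluster of Mir23a, Mir27a and Mir24-2 (chr19:40859455-40859843, minus strand) held 3.95% on both arrays, and that of Mir23b, Mir27b and Mir24-1 (chr17:1818669-1819482, minus strand) held 3.32% and 2.80%, with miR-24, which both encode, counted in full in each. The let-7a, let-7f and let-7d hairpins on chr17 (chr17:16320133-16322357, plus strand) held 5.15% and 2.19%, with the same caution for let-7a and let-7f. The miR-29 hairpins form a pair of clusters, on chr4 (chr4:60617955-60618414, minus strand) with 2.97% and 2.23% and on chr13 (chr13:109098831-109099446, plus strand) with 3.16% and 1.99%. Both encode miR-29b, which is counted in full in each. Without it the chr4 cluster held 2.06% and 1.46% and the chr13 cluster 2.25% and 1.22%. Mir143 and Mir145 (chr18:57369983-57371453, minus strand), the smooth muscle cluster, held 0.996% and 0.976%.

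The largest cluster by number was a run of 31 hairpins on chr6 (chr6:134543445-134579838, plus strand), known as an imprinted locus. Of the 21 array miRNAs matched to it by sequence 7 were detected on both. All of the 21 with a detected signal, on both arrays or on 1, together held 0.226% on sham 1 and 1.72% on sham 2. Array names of the run without a match, such as miR-376c and miR-543, were not counted, and these named ones were undetected on both arrays. Nearly all of the excess on sham 2 was miR-494, which alone held 0.135% and 1.59%. The matched miRNAs of the neighbouring run of 9 hairpins on the same strand, with miR-127 and miR-434, held 0.0695% and 0.0887%. This leaves out miR-136 of the same run, whose array name had no match, at 0.0162% on sham 1 and 0.0424% on sham 2. By chromosome, miRNAs with a single hairpin on chr9 held 32.1% and 56.5%, those on chr18 26.4% and 8.48%, and those on chr10 7.74% and 9.03%.

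To set single miRNAs of both muscles side by side, each signal was divided by the 75th percentile of its array over the 145 miRNAs detected on both (1181 and 547 units). Without this, 126 of the 145 were brighter on sham 1. After it, log2 signals had Pearson's r of 0.885 and Spearman's rho of 0.875 across the 145 miRNAs, which come from the same 2 arrays and are not replicates. The log2 ratio of sham 2 to sham 1 had an SD of 1.33, and the SD that the scanner's own errors give was 0.31. Its quartiles were −0.82 and 0.49, and its range −3.36 to 6.50. With 1 array per muscle no test is possible for a single miRNA, and muscle, RNA preparation and array cannot be told apart.

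Past 2-fold were 48 of the 145 (33.1%), 21 (14.5%) brighter on sham 2 and 27 (18.6%) brighter on sham 1, and 16 were past 4-fold. Within 1.25-fold were 46. The split in direction rests on the scaling: it was 30 brighter on sham 2 to 21 on sham 1 after dividing by the median, and 6 to 97 without scaling. The sign of the ratio changed, or the ratio became 0, for 31 of the 145 among the 4 scalings tried, and for 66 when the unscaled signals were counted too. The SD of the log2 ratios was 1.54 over the brightest 50 and 1.33 over all 145. Among the 20 of highest mean share, 8 were within 1.25-fold and 3 were past 2-fold: miR-1, let-7f and miR-494.

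**Figure D4:**
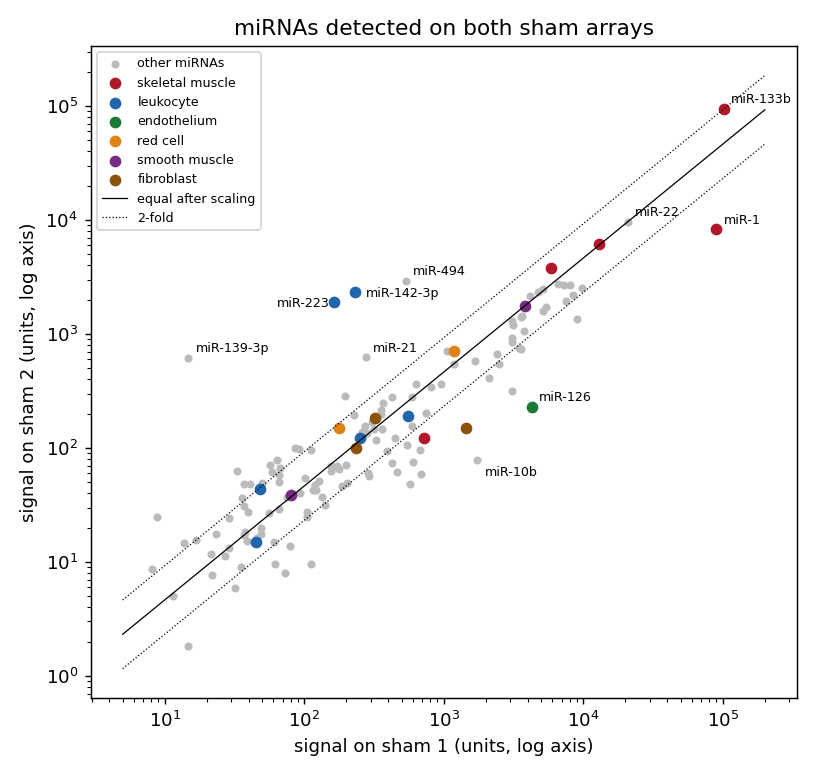
Signal on sham 2 against signal on sham 1 (units, both axes log) for the 145 miRNAs detected on both, coloured by marker list, with a solid line where scaled signals are equal and dotted lines at 2-fold. Points of miR-142-3p, miR-223, miR-494 and miR-139-3p lie above the lines and those of miR-1, miR-126 and miR-10b below, and 97 of the points lie within the dotted lines.

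The bright miRNAs that stood closest on the scaled signals were miR-22 (log2 ratio 0.00), miR-206 (0.04), miR-16 (0.04) and miR-143 (−0.02). Under quantile normalization, which ties values to ranks, the ratio of miR-22 was 1.16, as it stood at rank 3 on sham 1 and rank 2 on sham 2. The ratio of miR-133b was 1.00, just inside 2-fold, with a scanner error of 0.16. It was 0.98 after dividing by the total and 1.26 after dividing by the median. Quantile normalization sets it to 0, because miR-133b was the brightest on both arrays, and the unscaled ratio was −0.11. For miR-1 it was −2.32 ± 0.15 (scanner error), a 4.99-fold lower scaled signal on sham 2, and it was negative under all 5 scalings, from −1.16 after quantile normalization to −3.43 without scaling.

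Some leukocyte miRNAs stood far higher on sham 2. The myeloid miRNA miR-223 read 164 ± 13.5 units on sham 1 and 1924 ± 138 on sham 2, a log2 ratio of 4.66 ± 0.16. The pan-leukocyte miRNA miR-142-3p read 231 ± 18.9 and 2337 ± 171 units, a log2 ratio of 4.45 ± 0.16. Its partner from the other arm of the same hairpin, miR-142-5p, was undetected on sham 1 at 19.1 units and read 504 ± 35.7 on sham 2. After scaling this was 47.1-fold above the highest undetected miRNA signal of sham 1, 23.1 units. Folds of miRNAs detected on 1 array only use this limit, which was 9.11 units on sham 2. Negative controls reached 52.2 units on sham 1 and 3.91 on sham 2, so these folds are not lower bounds in either direction. Both arms of miR-142 and miR-223 were therefore higher on sham 2 although that array was dimmer overall.

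The rest of the leukocyte list differed less. The lymphocyte miRNA miR-150 read 551 and 189 units, a log2 ratio of −0.43, and the inflammation-linked miR-146a read 251 and 123 units, a ratio of 0.08. For miR-146b the signals were 48.3 and 43.3 units and the ratio 0.95. Of the 6 list members detected on both, 4 had ratios above 0, as had 60 of all 145, and 2 were past 2-fold brighter on sham 2 and none past 2-fold brighter on sham 1, beside 14.5% and 18.6% of all 145. The summed list was 1292 units (0.328% of the signal) on sham 1 and 5136 units (2.79%) on sham 2. The miRNAs of red cells were closer: miR-451 read 1181 and 713 units, miR-144 read 178 and 149, and the pair held 0.345% and 0.469% of the signal. The part of leukocytes in the other differences between the arrays was not tested.

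Endothelial miRNAs went the other way. The signal of miR-126 was 4275 ± 334 units on sham 1 and 230 ± 18.3 on sham 2, a log2 ratio of −3.11 ± 0.16. From the other arm of the hairpin, miR-126* read 153 ± 17.7 units on sham 1 and was undetected at 5.85 on sham 2. After scaling, its sham 1 signal was 7.80-fold above the highest undetected miRNA signal of sham 2. Together miR-126 and miR-126* held 1.13% and 0.125% of the signal. Smooth muscle, also part of the vessel wall, showed no such gap, as miR-143 and miR-145 held 0.996% and 0.976%, with 80.9 and 39.0 units for miR-145.

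Fibroblast miRNAs were split. From the same hairpin, miR-199a-3p read 1444 ± 107 units on sham 1 and 148 ± 11.0 on sham 2, a log2 ratio of −2.17, while miR-199a-5p read 322.2 ± 29.5 and 184 ± 15.8, a ratio of 0.30. Their neighbour miR-214 lay near 0, at 234 and 99.98 units and a ratio of −0.12. In the list of nerve and brain 3 of 7 were detected on both, miR-128, miR-338 and miR-219-5p, and together they held 0.246% and 0.158%. The brightest of them, miR-128, which muscle also expresses, read 743 and 202 units.

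The largest fitted ratio of the 145 was that of miR-139-3p, at 14.8 ± 6.39 units on sham 1 and 622 ± 56.0 on sham 2, 6.50 on the log2 scale with a scanner error of 0.64. Its sham 1 signal was flagged as detected but lay below all 7 negative controls (14.96 to 52.2 units), so the size of the fold is not known. Its other arm, miR-139-5p, was undetected on both arrays, at 11.0 and 6.18 units. After miR-223 and miR-142-3p came miR-494, at 533 and 2930 units with a ratio of 3.57. The signal of miR-33, which lies in a sterol regulator gene, was 8.75 ± 5.25 units on sham 1, below all negative controls there, and 24.7 ± 2.73 on sham 2. The injury-linked miRNA miR-21 read 276 ± 212 units on sham 1 and 628 on sham 2, and its log2 ratio of 2.30 carried a scanner error of 1.11, the weakest measurement among these. Further down were miR-320 at 33.2 and 63.1 units, miR-324-3p at 197 and 288, and miR-425 at 37.1 and 47.8. After these came miR-466b at 56.7 and 70.3 and miR-136 at 63.5 and 78.0. The sham 1 signals of miR-320 and miR-425 lay within the range of the negative controls there.

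On the side of sham 1 the lowest ratio was that of miR-10b, at 1738 and 78.3 units, −3.36 or 10.3-fold. Its near relative miR-10a-5p, from the Hoxb cluster, was low as well, at 573 and 48.5 units and −2.45. The Hox cluster miRNA miR-196a followed the same direction at 604 and 75.9 units. Of the other extremes, miR-26b, within the span of Ctdsp1, read 3064 and 315 units and had a ratio of −2.17, against −0.84 for its family member miR-26a. miR-322 read 689 and 59.5 units, miR-204 111 and 9.63, let-7d* 72.9 and 8.05, and miR-760-5p 14.6 and 1.84. The sham 1 signal of miR-760-5p lay below all negative controls there, and its ratio of −1.88 carried a scanner error of 1.40. The signs of these extremes of both directions were the same under all 5 scalings, which does not address the error of dim signals.

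Families differed in whether their members kept together. All 8 let-7 members were brighter on sham 1 after scaling, with a median log2 ratio of −0.80 and a range of −1.64 to −0.54, where the median of all 145 was −0.14, and 3 of the 8 were past 2-fold, beside 18.6% of the 145. Of all 145, 85 (58.6%) were brighter on sham 1 after scaling and 60 on sham 2. All 8 were also negative under each of the other 4 scalings. All 4 detected members of the miR-106b family, which includes miR-17-5p, miR-20a and miR-93 and belongs to the proliferation-linked clusters, were brighter on sham 2, with a median of 0.86 and a range of 0.31 to 1.34. Without scaling this became 2 brighter and 2 dimmer. The 3 miR-196 members were all brighter on sham 1 under all 5 scalings, with a median of −0.94. By contrast the 5 members of the miR-16 family lay on both sides, from miR-322 at −2.42 to a highest ratio of 0.25, and the 4 of miR-181 from −1.57 to 1.14, with 1 past 2-fold each way. The highest ratios of the miR-106b and miR-181 families, those of miR-17-5p and miR-181c, rest on sham 1 signals of 40.9 and 35.9 units. Both signals lay below the highest negative control there, 52.2 units. Members of a family share sequence and may share probes' signal, so they are not independent readings.

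**Figure D5:**
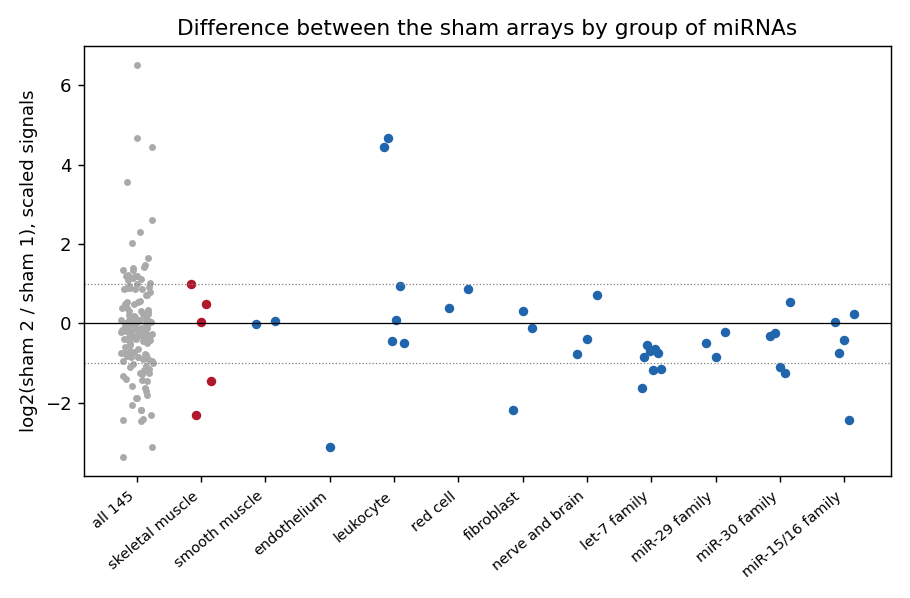
Log2 ratio of scaled signals, sham 2 over sham 1 (vertical axis), with a point for each miRNA detected on both arrays, for all 145, for marker lists and for families, and dotted lines at 2-fold. The let-7 points all lie below 0 and miR-223 and miR-142-3p of the leukocyte list lie above 4. The miR-30 column also holds miR-30b-5p and miR-30d, placed there by name.

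For 37 hairpins each array detected at least 1 of both measured arms, and in 33 of them the same arm was the brighter on both arrays. The arm preference of the bright hairpins was strong and similar. The 3′ arm gave 98.6% of the signal of the miR-22 hairpin on sham 1 and 99.4% on sham 2, and 99.9% and 99.7% for miR-29a. For miR-29c the 3′ arm gave 95.2% and 96.7%, for miR-30a the 5′ arm gave 91.5% and 96.6%, and for let-7d the 5′ arm gave 98.0% and 98.9%. A more even split was seen for miR-378, at 76.1% and 78.0% from the 3′ arm. For miR-142 the 3′ arm gave 92.4% and 82.3%.

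The brighter arm was not the same in the other 4 hairpins. For miR-199a the 3′ arm gave 81.8% on sham 1 and the 5′ arm 55.3% on sham 2. For miR-140, a cartilage miRNA, the 5′ arm gave 58.1% on sham 1 and the 3′ arm 58.3% on sham 2, a near-even split on both. For miR-125a the 5′ arm gave 94.1% on sham 1, where miR-125a-3p was undetected, and the 3′ arm 72.7% on sham 2, where it read 84.6 units. The last of them, miR-760, was dim on both arrays. Names with a star, the older mark of the minor arm, numbered 58, of which 14 were detected on both arrays, and they held 0.887% and 0.548% of the signal.

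Among miRNAs detected on 1 sham array only, the brightest on sham 2 were miR-142-5p, then miR-188 at 285 units and miR-327 at 124. Next came miR-125a-3p at 84.6 and miR-345-3p at 66.1 units. After scaling miR-188 was 26.7-fold above the highest undetected miRNA signal of sham 1, which the highest negative control there exceeded. The brightest on sham 1 only were miR-126*, then miR-335 at 79.3 units, miR-211 at 62.9, miR-349 at 49.7 and let-7b* at 43.0 units. After scaling miR-335 was 4.03-fold above the highest undetected miRNA signal of sham 2. The signals of miR-349 and let-7b* lay below the highest negative control of sham 1, 52.2 units. The median GC content of the 31 sequences found on sham 2 only was 54.5%, and that of the 10 found on sham 1 only and of the 128 found on both was 45.5%. Over the 128 the ratio of sham 2 to sham 1 and GC content had a Spearman's rho of 0.15, as a description. The part of base composition in these differences was not tested.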

How the data were processed

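Scanner files were deposited for each array. Per the file headers they give a miRNA's total signal as a linear intensity, the intensity error that the software attached to it, and whether it was detected. The submitters' processing notes name Agilent Feature Extraction, at version 9.5.3, as the software. Per the labels' protocols, RNA was isolated with a miRNA kit and labelled with Cy3 after linear amplification. The method of background subtraction is not given in the sources used here. A value table that the authors deposited beside the scanner files repeated their intensities for the sham arrays: 0 of 744 entries were different (tolerance 0), and the column medians were 11.3 and 7.60 units. It is therefore linear, uncentred and without a direction of its own.

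Only the sham arrays were used, without the 22 control features. Shares are over miRNAs flagged as detected. Ratios use signals divided by a 75th percentile per array, taken over the 145 miRNAs found on both. No test was possible between 2 single arrays. Array names without an arm were matched by hand to RefSeq mature sequences (GRCr8), families share bases 2 to 8, and clusters join hairpins within 10 kb on a strand. Hairpins without an entry of their own in the sequence reference were not joined. Hairpins encoding the same miRNA are each given its full signal.

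The samples, lists and naming rule were chosen with earlier results of these data known. Named were the 20 brightest, leading members of families, clusters and lists, the 10 largest ratios each way, the 5 brightest on 1 array only and up to 8 hairpins with both arms. The 4 hairpins whose brighter arm differed, miR-139-5p, and the families of miR-106b, miR-196 and miR-181 were chosen after their values were seen, as was the limit behind folds of miRNAs detected on 1 array only. The ratio calculation was tested on simulated data. Python 3.11.15, pandas 2.3.3, numpy 2.4.6 and matplotlib 3.10.9 were used.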

Additional observations from a re-analysis of the deposited data

Results flagged for a closer look

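Of the 22 control features left out of every comparison, 6 were detected on both sham arrays, while none of the 7 negative controls was. The mean of both arrays was 27799 units for hur_1, 101878 for hur_2, 17190 for hur_4, 18324 for hur_6, 1154 for miRNABrightCorner30 and 953 for mr_1. The ratio of sham 1 to sham 2 was 0.934, 1.24, 0.459, 0.932, 3.53 and 1.17 in the same order, where the total miRNA signal had a ratio of 2.14. What these features hold is not given in the sources used here. The highest negative control was at 52.2 units on sham 1 and 3.91 on sham 2, and 40 detected miRNAs on sham 1 and 2 on sham 2 lay at or below it.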

How the results depend on the processing

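Leaving miR-133b and miR-1 out of the total moved most shares: the mean share of the 10 brightest went from 72.1% to 47.4%, the number of miRNAs that made up 50% from 2 to 11.5, the miR-133b family to 3.80%, the let-7 family to 13.2%, the Mir133b and Mir206 cluster to 7.01% and the skeletal muscle list to 11.1%. Using 1 sham array alone, the number that made up 50% was 1 to 3. The overlap of 85% for the 20 brightest was 70% for 10 and 80% for 50. Pearson's r (0.885) was 0.905 for signals above 3 errors and 0.723 above the median signal, and the SD of log2 ratios (1.33) was 1.18 and 1.60 there and 1.31 after quantile normalization. The count past 2-fold (48) was 25 above the median signal, where fewer miRNAs enter, 103 without scaling and 16 past 4-fold. The median log2 ratio of −0.14 became 0.12 with the median, −0.16 with the total, −0.07 with quantile normalization and −1.25 without scaling. Using 1 of 2 arrays moves a mean by less than its SD by construction, and the value table equals the scanner files, so neither shows stability. Of the 268 other comparisons of single values, 204 moved by less than the spread between the arrays, and 54 of the remaining 64 came from leaving out those 2 miRNAs. No paired analysis was possible because both samples belong to the same group. The number of arrays, 2, limits every value, and dim miRNAs rest on signals near the negative controls.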
